A study of Mus musculus with 8 samples.

Results

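Integrins and laminins are the 2 sides of the contact between a cell and its basement membrane, and their subunit genes were described here across reprogramming cells that differed in histone genotype and in TGF-beta signalling. The 37 genes were all rows of the deposited count table, among 26930, whose symbol names an integrin alpha subunit (18 genes, including Itgav), an integrin beta subunit (8 genes) or a laminin chain (11 genes). The rule reads symbols alone and uses no measured value. The RNA, depleted of ribosomal RNA, came from fibroblasts of mouse embryos that had been reprogrammed for 8 days by OKSM (the factors Oct4, Klf4, Sox2 and Myc) in AGi, the medium's name in the labels. The cells were WT, which the labels also describe as H3, or K36M, a histone H3 mutant with a methionine in place of a lysine of its tail; how the mutant histone and the factors were expressed is not given in the sources used here. Each genotype was kept with Repsox at 250 nM, a small molecule that blocks the type I receptor for TGF-beta, or with TGFb-1, the TGF-beta1 ligand, at 2.5 ng/ml, which gave 4 groups of 2 libraries. Whether replicate libraries stem from separate cultures or animals is not in the labels, so the p-values measure the spread between these libraries, which may be technical. No group without a treatment was analysed here, so each medium difference is between a blocked and a stimulated receptor.

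An integrin is a receptor of 1 alpha and 1 beta chain that spans the membrane and ties the extracellular matrix to the actin or keratin cytoskeleton. The alpha chain sets most of the ligand choice: some alpha chains bind laminins, some bind collagens, and some bind the RGD sequence of fibronectin and vitronectin. A laminin is a cross-shaped trimer of 1 alpha, 1 beta and 1 gamma chain and is the main cell-binding part of the basement membrane. Epithelial sheets are known for laminins with the alpha-5 or alpha-3 chain and for the hemidesmosome integrin made of Itga6 and Itgb4, and mesenchymal cells for laminins with the alpha-2 or alpha-4 chain and for collagen and fibronectin receptors. Integrins also act in TGF-beta signalling itself, because receptors with Itgav release TGF-beta from its latent complex.

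The libraries held 10928302 to 15594217 counts, and replicates of a group correlated across genes at a Spearman coefficient of 0.966 to 0.970. By chi-square per degree of freedom, which is larger where replicates differ more, the groups were less alike. With Repsox it was 9.09 for WT and 2.70 for K36M, and with TGF-beta 2.75 for WT and 5.43 for K36M. The tests shared each gene's spread among the groups, so they do not reflect this inequality. The cells' own marker lists differed between the groups. The summed level of 17 mesenchymal markers, in CPM (counts scaled to library size), was 3785 to 4062 with Repsox and 11107 to 12420.4 with TGF-beta in WT, and 224 to 263 with Repsox and 939 to 953 with TGF-beta in K36M. These markers did not move as one in WT: with TGF-beta 7 rose, 7 fell and 3 were not called, the sum being carried by the cytoskeletal gene Vim (1904 and 1808 to 4845 and 5115 CPM) and the collagen genes Col1a1 and Col1a2, while the surface marker Thy1 fell from 552 and 549.7 to 25.7 and 31.2 CPM. Against WT, K36M had 16 of the 17 lower under Repsox and 13 lower and 1 higher under TGF-beta. Of all tested genes, 26.9% were lower under Repsox, and 33.9% lower and 36.4% higher under TGF-beta. With TGF-beta in WT, 29.0% of all tested genes rose and 33.4% fell. In the order of groups of the mesenchymal sums, the 14 epithelial markers summed to 2643 to 2782, 498 to 569, 6211 to 6455 and 5378 to 5605 CPM. The 10 pluripotency markers summed to 1346 to 1569, 32.5 to 35.3, 1993 to 1999.7 and 1043 to 1053 CPM in that order. No mesenchymal, epithelial or pluripotency marker was at 0 in every library. In bulk RNA a change in the share of cells of a type and a change in RNA per cell cannot be told apart, and the part that cell makeup played in the results below was not tested.

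Of the 37 genes, 35 passed the filter on low counts and were tested. Itgax had no count in any library and Itgad had 1 count in all, and neither was tested. Another 10 passed although not every group reached the filter's level: Itga2, Itgam and Lamc3 reached it in 1 group, Itga4, Itgae and Itgb2 in 2, and Itga8, Itgb6, Itgb7 and Itgb8 in 3. The remaining 25 reached it in all 4 groups. At a level of 1 CPM in both libraries of a group, WT cells had 29 genes present with Repsox and 30 with TGF-beta, K36M cells had 27 and 29, and 23 genes were present in every group. Among the tested genes the highest mean level was in WT under TGF-beta for 15, in K36M under TGF-beta for 11, in K36M under Repsox for 5 and in WT under Repsox for 4.

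**Figure D1:**
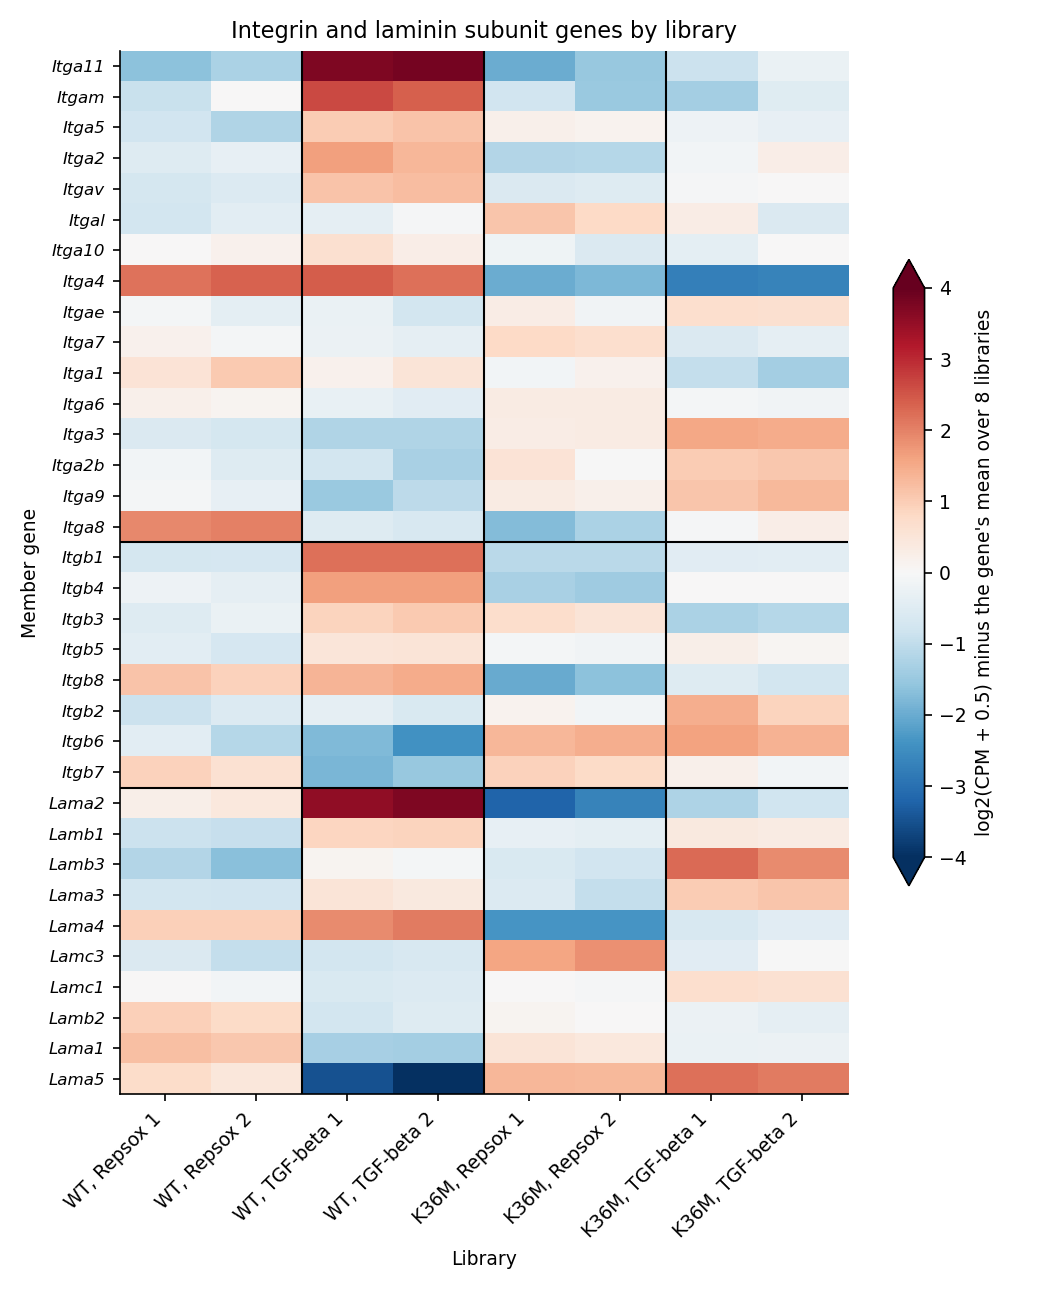
Heat map of 34 of the 35 tested genes (rows, grouped as integrin alpha, integrin beta and laminin genes) in the 8 libraries (columns), coloured by log2(CPM + 0.5) minus the gene's mean over the libraries. The 2 WT libraries under TGF-beta stand out with high Itga11, Lama2 and Itgb1 and low Lama5, and the K36M libraries with low Itga4, Lama2 and Lama4.

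To compare different genes, levels were divided by the length of the gene's merged exons in kilobases (CPM per kb). Merged exons join all annotated transcripts of a gene, so the ranks, shares and ratios between genes below depend on this choice of length. Itgb1, the common beta chain that pairs with 12 alpha chains, had the highest length-scaled level of the 8 beta chains in every group: 104 ± 2.86 CPM per kb with Repsox (mean ± SD, n = 2) and 770.0 ± 7.07 with TGF-beta in WT, and 78.9 ± 0.0299 with Repsox and 124 ± 1.91 with TGF-beta in K36M. Among the alpha chains the order changed between groups. Itga6, a laminin-binding chain, led in WT under Repsox at 31.7 ± 1.11 CPM per kb. Itgav and Itga5, which bind RGD ligands, led in WT under TGF-beta at 75.2 ± 2.95 and 72.9 ± 4.69, and the libraries of these 2 genes overlapped there. Itga5 led in K36M under Repsox at 38.9 ± 0.657, ahead of Itga6 at 35.4 ± 0.0978. Before division by length the order there was the reverse, with Itga6 at a mean of 320 CPM and Itga5 at 171 CPM. Their merged exons hold 9025 and 4379 bases. Itga3, a laminin-binding chain, led in K36M under TGF-beta at 63.7 ± 1.93, ahead of Itgav at 32.5 ± 1.21. Among the laminin chains Lamc1 led in WT under Repsox (84.1 ± 4.55 CPM per kb), Lamb1 in WT under TGF-beta (107 ± 0.952) and Lama5 in both K36M groups (89.6 ± 1.53 under Repsox and 157 ± 8.38 under TGF-beta).

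TGF-beta was first compared with Repsox in WT cells. The common beta chain Itgb1 and the RGD and collagen receptor chains Itgav, Itga5 and Itga11 rose, as did Itgb4 and the laminin chains Lama2, Lama4 and Lamb1, while Lama5, Lama1 and Lamb2 fell. The rise in Itgb1 was 7.41-fold and the fall in Lama5 24.2-fold. Of the 35 tested genes, 15 rose and 11 fell (adjusted p below 0.05, edgeR quasi-likelihood test with Benjamini-Hochberg adjustment over 15789 genes), beside 29.0% of all tested genes higher and 33.4% lower. The share that rose was above that of all genes, and the share that fell was near it. The median log2 fold change was 0.43 over these genes and -0.07 over all tested genes.

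Itgb1 (chromosome 8, 131209554 to 131257100 on mm9) stood at 416 and 432 CPM in the 2 WT libraries under Repsox and at 3122 and 3163 CPM under TGF-beta (log2 2.89 ± 0.06, adjusted p = 1.64e-20). Both TGF-beta libraries lay far above both Repsox libraries. Itgb4 (chromosome 11, 115836023 to 115869726), which pairs with Itga6 in hemidesmosomes, went from 579 and 520.4 to 2077 and 2093 CPM, a 3.79-fold rise (log2 1.92 ± 0.06, adjusted p = 5.83e-17). Itgb5, a partner of Itgav in vitronectin receptors, rose 2.08-fold, and Itgb3, the other main partner, rose from 33.5 and 40.0 to 89.9 and 100.3 CPM, 2.59-fold (log2 1.37 ± 0.10, adjusted p = 9.5e-11). The beta chain of the epithelial TGF-beta-releasing integrin, Itgb6, was near the detection limit and fell from 2.97 and 1.59 to 0.861 and 0.359 CPM (log2 -1.95 ± 0.44, adjusted p = 0.000612). Without library 1 of WT under TGF-beta the log2 fold change of Itgb6 was -2.64, and over 16 alternative analyses it ranged from -2.64 to -1.41.

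Among the alpha chains, Itga11 (chromosome 9, 62525633 to 62631789), a receptor for fibrillar collagen in fibroblasts, rose from 2.43 and 3.25 to 121 and 129 CPM, 44.3-fold (log2 5.47 ± 0.17, adjusted p = 1.81e-17). Itga5 (chromosome 15, 103174720 to 103197194), the fibronectin receptor chain, rose from 89.7 and 65.3 to 305 and 334 CPM (log2 2.04 ± 0.11, adjusted p = 1.28e-13), and its 2 Repsox libraries differed more from each other than its 2 TGF-beta libraries did in relative terms. Itgav (chromosome 2, 83564554 to 83647073) rose from 219 and 240.2 to 786 and 831 CPM, 3.52-fold (log2 1.82 ± 0.07, adjusted p = 5.15e-16). Of the laminin-binding chains, Itga6 (chromosome 2, 71583673 to 71696473) fell from 293 and 279 to 209 and 186 CPM (log2 -0.53 ± 0.07, adjusted p = 1.36e-06), and Itga3 fell from 83.4 and 77.3 to 54.7 and 53.9 CPM (log2 -0.56 ± 0.08, adjusted p = 2.49e-06). Itga9, which binds tenascin and osteopontin, fell from 7.68 and 6.27 to 2.58 and 3.66 CPM (log2 -1.15 ± 0.23, adjusted p = 0.0002). Itga4 stayed between 21.4 and 25.7 CPM in the 4 WT libraries, and its groups overlapped (adjusted p = 0.777).

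**Figure D2:**
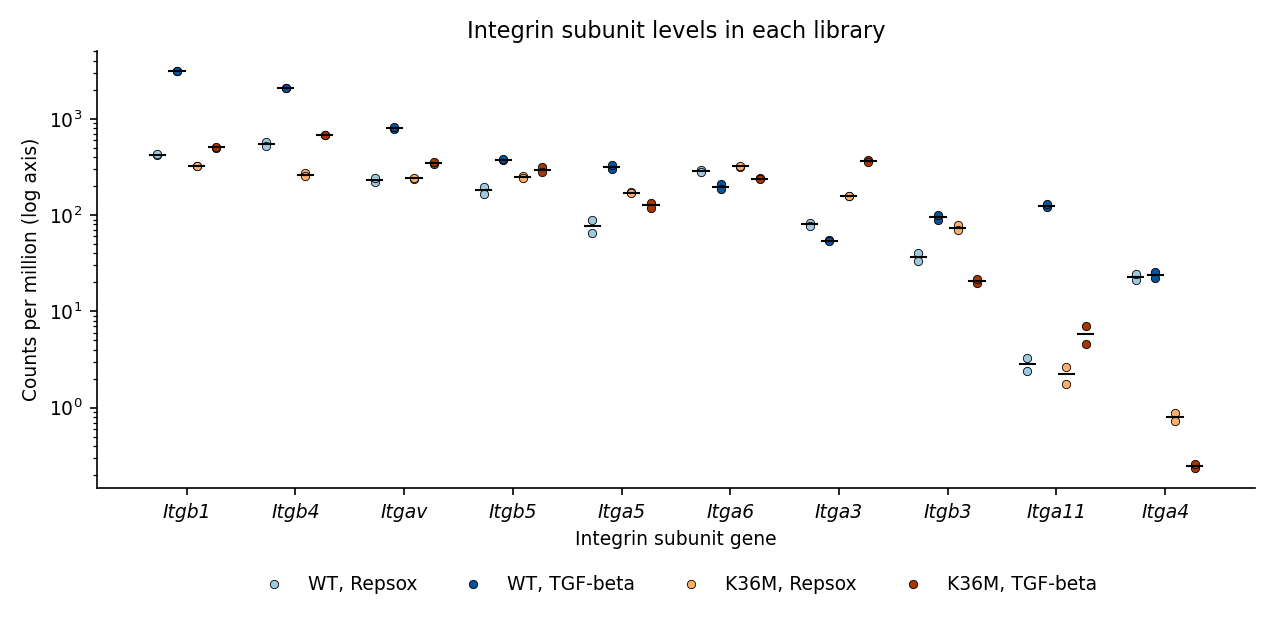
Levels of 10 integrin subunit genes in CPM (log axis) in each of the 8 libraries, with a bar at the mean of the 2 libraries of a group. Itgb1, Itgb4, Itgav and Itga11 are highest in WT under TGF-beta, Itga3 is highest in K36M under TGF-beta, and Itga4 lies below 1 CPM in all 4 K36M libraries.

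Laminin chains changed in both directions in WT cells. Lama5 (chromosome 2, 179911078 to 179960564), the alpha chain found in most epithelial basement membranes, fell from 673 and 564 CPM under Repsox to 35.7 and 16.2 CPM under TGF-beta (log2 -4.60 ± 0.18, adjusted p = 7.54e-16). The 2 TGF-beta libraries differed 2.20-fold in Lama5, the widest gap between replicates among members with both libraries at 1 CPM or more. Without library 1 of these the log2 fold change was -5.24, and over 16 alternative analyses it ranged from -5.24 to -4.12. The epithelial markers differed between these 2 libraries in the same direction, with Cdh1, the epithelial cadherin, at 41.1 and 23.1 CPM and Epcam, an epithelial adhesion molecule, at 16.7 and 8.04 CPM; their part in the result was not tested. Lama1 (chromosome 17, 68046605 to 68171985), the alpha chain of the early embryo's basement membranes, fell from 253 and 229 to 43.0 and 41.9 CPM, 5.68-fold (log2 -2.50 ± 0.09, adjusted p = 1.07e-16). Lamb2 fell from 228 and 201 to 70.1 and 83.0 CPM (log2 -1.48 ± 0.09, adjusted p = 3.67e-12). Lamc1 (chromosome 1, 155066052 to 155179916), the gamma chain of most laminins, fell by 0.53 on the log2 scale, from 722 and 669 to 473 and 492 CPM (adjusted p = 1.2e-07).

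The chains that rose in WT under TGF-beta included both mesenchymal alpha chains. Lama2, the laminin alpha chain of muscle and nerve sheaths, rose from 14.0 and 16.1 to 144 and 163 CPM, 10.2-fold (log2 3.35 ± 0.12, adjusted p = 3.17e-16). Lama4, the alpha chain of vessel walls and mesenchyme, rose from 163 and 163 to 312 and 362 CPM (log2 1.05 ± 0.08, adjusted p = 2.9e-10). Lamb1 (chromosome 12, 31950099 to 32014509), the common beta chain, rose from 316 and 304 to 1049.6 and 1063 CPM, 3.40-fold (log2 1.77 ± 0.06, adjusted p = 1.19e-16). Lama3 and Lamb3, chains of the anchoring laminin of stratified epithelia, also rose, 2.33-fold and 3.07-fold. Lamb3 remained low, at 6.11 and 5.31 CPM. Of the 26 calls in WT, 1 was lost under alternatives: Itga2b, the platelet fibrinogen receptor chain, at 2.97 and 2.12 against 1.72 and 1.01 CPM, had an adjusted p of 0.0405, of 0.241 without library 1 under Repsox and of 0.300 without library 2 under TGF-beta.

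For 23 of the 37 genes RefSeq promoter sequences were at hand (26 windows), and 3 are shown because they belong to genes on which the comparison of the media in WT cells turns: Itgb1 and Itga11, which rose, and Lama5, which fell. They were picked after their values had been seen. Each window holds the 200 bases from 250 to 51 bases before the RefSeq start (table build GRCm38.p6), written 5′ to 3′ on the gene's strand, and matched the mm9 genome exactly and once: chr8:131209304-131209503 on the + strand, chr9:62525412-62525611 on the + strand and chr2:179960615-179960814 on the - strand. Capitals mark 6 motifs searched on both strands: CAGGTG, the E-box form that ZEB and SNAIL proteins bind, CAGACA, which holds a core that SMAD proteins bind, GGGCGG, the GC box of SP proteins, TGANTCA, the AP-1 site, GGAATG, the TEAD site, and TATAAA, the TATA box.
Itgb1: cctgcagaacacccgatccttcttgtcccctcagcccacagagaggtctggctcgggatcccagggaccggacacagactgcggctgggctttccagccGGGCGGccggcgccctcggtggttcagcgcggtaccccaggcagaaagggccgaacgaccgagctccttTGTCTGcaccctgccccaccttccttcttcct
Itga11: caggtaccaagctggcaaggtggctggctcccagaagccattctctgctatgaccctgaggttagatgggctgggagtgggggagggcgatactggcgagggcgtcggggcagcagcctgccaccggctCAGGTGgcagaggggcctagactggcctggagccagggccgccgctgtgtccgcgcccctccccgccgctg
Lama5: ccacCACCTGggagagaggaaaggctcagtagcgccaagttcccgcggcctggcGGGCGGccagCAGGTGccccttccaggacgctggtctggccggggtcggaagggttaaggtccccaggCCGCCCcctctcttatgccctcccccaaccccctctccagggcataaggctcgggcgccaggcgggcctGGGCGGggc

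The Lama5 window held CAGGTG 2 times and GGGCGG 3 times, the Itga11 window CAGGTG 1 time, and the Itgb1 window CAGACA 1 time and GGGCGG 1 time, with no overlap between motifs in these 3. Lama2, which also rose, had none of the 6 in its window. Of all 32851 windows of that length, 14.4% held CAGGTG, 14.3% CAGACA, 24.6% GGGCGG, 5.57% TGANTCA, 10.7% GGAATG and 9.14% TATAAA. Among the 26 member windows, 7 held CAGGTG, 7 CAGACA, 8 GGGCGG and 2 GGAATG, while 0 held TGANTCA or TATAAA. Whether any factor bound these windows was not measured.

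In K36M cells TGF-beta again raised Itgb1 and Itgb4, but by less, and several laminin chains rose by more than they did. Lama3 and Lamb3, chains of the anchoring laminin of stratified epithelia, rose 3.46- and 7.70-fold, and Itga3, a receptor chain for that laminin, rose 2.31-fold. Itgb3 and Itga5 fell. Of the 35 tested genes, 20 rose and 11 fell, beside 24.7% of all tested genes higher and 23.6% lower, and the median log2 fold change was 0.67 against 0.01 over all tested genes. Both shares were above those of all genes, the share that rose by more.

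Lamb3 rose from 3.49 and 3.14 CPM in the K36M libraries under Repsox to 29.1 and 22.2 CPM under TGF-beta (log2 2.95 ± 0.22, adjusted p = 1.84e-10) and Lama3 from 32.3 and 24.2 to 95.7 and 101 CPM (log2 1.79 ± 0.11, adjusted p = 8.24e-12). In each of these genes both TGF-beta libraries lay above both Repsox libraries, as is likely for genes picked for the widest called changes. Keratinocyte markers, 8 genes, summed to 97.2 to 106 CPM under Repsox and 271 to 294 CPM under TGF-beta in K36M, most of it from Sfn. Krt5, a basal keratin, reached 12.5 and 9.52 CPM, and Trp63, the basal cell regulator, and Krt1 stayed at or below 1.91 CPM in the K36M libraries. The rise was not particular to K36M: in WT the same 8 genes summed to 77.1 to 93.3 CPM under Repsox and 385 to 387 CPM under TGF-beta. The part of these markers in the result was not tested. Lama5 rose from 1034 and 1009 to 1863 and 1727 CPM (log2 0.81 ± 0.14, adjusted p = 5.77e-05), a call that DESeq2 did not make (adjusted p = 0.0877). Lamc1 rose from 719 and 687 to 1137 and 1096 CPM and Lamb1 from 458 and 438 to 753 and 727 CPM (log2 0.67 ± 0.06 and log2 0.72 ± 0.06).

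Both mesenchymal alpha chains rose from low levels in K36M. Lama2 went from 0.856 and 1.45 to 4.77 and 6.64 CPM (log2 2.32 ± 0.28, adjusted p = 3.46e-07), and Lama4 from 15.9 and 15.9 to 53.5 and 61.1 CPM (log2 1.84 ± 0.11, adjusted p = 2.55e-12). Neither reached its level in WT under Repsox. Lama1 fell from 154 and 144 to 89.2 and 91.7 CPM (log2 -0.72 ± 0.08, adjusted p = 1.72e-07). Lamb2 fell by 0.36 on the log2 scale (adjusted p = 0.00276, and 0.0517 without library 2 of K36M under TGF-beta).

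Among the integrins of K36M cells, Itgb1 rose from 322 and 322 to 501 and 512 CPM, 1.57-fold (log2 0.65 ± 0.06, adjusted p = 1.78e-09), and Itgb4 from 273 and 252 to 677 and 674 CPM, 2.57-fold (log2 1.36 ± 0.06, adjusted p = 8.94e-14). Itga3 rose from 156 and 158 to 371 and 356 CPM (log2 1.21 ± 0.07, adjusted p = 8.73e-12). Itgav rose from 239 and 245 to 339.5 and 358 CPM and Itga11 from 1.78 and 2.65 to 4.53 and 6.99 CPM (log2 0.53 ± 0.07 and log2 1.39 ± 0.25). Against these, Itgb3 fell from 78.9 and 69.4 to 19.5 and 21.5 CPM, 3.62-fold (log2 -1.86 ± 0.11, adjusted p = 6.62e-12), and Itga5 from 173 and 168 to 132 and 119.9 CPM (log2 -0.43 ± 0.10, adjusted p = 0.00135). Itga6 fell from 319 and 321 to 244 and 234 CPM (log2 -0.42 ± 0.07, adjusted p = 4.85e-05), and Itga7, a laminin receptor chain of muscle, from 21.9 and 19.8 to 7.97 and 9.35 CPM (log2 -1.27 ± 0.17, adjusted p = 1.46e-06). Itga1, a collagen receptor chain, fell from 4.28 and 5.31 to 2.19 and 1.49 CPM (log2 -1.36 ± 0.32, adjusted p = 0.00123).

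Some calls in K36M rested on single libraries or on low counts. Itgb5 rose 1.20-fold (adjusted p = 0.00794), with adjusted p = 0.0931 without library 2 under Repsox and 0.149 without library 1 under TGF-beta. Itga4 fell from 0.724 and 0.885 to 0.234 and 0.262 CPM (adjusted p = 0.0218, and 0.0709 to 0.108 without either TGF-beta library or without library 2 under Repsox). Itgb7, a chain of lymphocyte integrins, fell from 4.61 and 4.10 to 2.58 and 2.01 CPM (adjusted p = 0.0232), and the call was lost without library 1 under Repsox (0.132), narrowly without library 2 under Repsox, without library 2 under TGF-beta (0.137) and with DESeq2 (0.132). Calls of the low genes Itgal and Itgb2 were also lost without single libraries and with DESeq2, with adjusted p up to 0.184 and 0.183, and that of Itgb8 reached 0.0509 without library 1 under Repsox. Without library 2 of K36M under TGF-beta, 7 genes were called lower in place of 11.

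The difference between the genotypes in the response to the medium was tested as the interaction, the log2 change in K36M minus that in WT. It was called for 29 of the 35 genes, 15 with a larger value in K36M and 14 with a smaller one, beside 28.5% of all tested genes higher and 22.6% lower, both smaller shares than among these genes. The median was 0.57 over these genes and 0.09 over all tested genes. The summed level of 7 TGF-beta response genes, such as Smad7, was 464 to 479.9 CPM with Repsox and 5351 to 5430.0 CPM with TGF-beta in WT, and 475 to 477 and 1074 to 1103 CPM in K36M, and its part in the result was not tested.

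Of 24 genes called in both genotypes, which share no library in this comparison, 12 rose in both and 4 fell in both. The shares of all tested genes with each pattern of direction were not computed, so the counts describe these genes only. The 12 included Itgb1, Itgb4, Itgb5, Itgav, Itga2, Itga11, Lama2, Lama3, Lama4, Lamb1 and Lamb3, and the 4 were Itga6, Itgb7, Lama1 and Lamb2. Another 8 moved in opposite directions: Itga5 and Itgb3 rose in WT and fell in K36M, and Itga2b, Itga3, Itga8, Itga9, Lama5 and Lamc1 fell in WT and rose in K36M. The interaction was called for each of these 8, which largely follows from called changes of opposite sign in the same fit. The 2 changes of Itga2b rested on low counts: its fall in WT was lost as given above, and its rise in K36M (adjusted p = 0.0248) had adjusted p = 0.235 without library 2 of K36M under Repsox, 0.0740 and 0.0988 without library 1 or 2 of K36M under TGF-beta, and 0.113 with DESeq2. Lama5 had an interaction of log2 5.41 ± 0.23 (adjusted p = 1.64e-14) and Itgb1 of log2 -2.24 ± 0.08 (adjusted p = 1.02e-15), the 2 smallest adjusted p-values among these genes. The Itgb1 rise was thus 4.71-fold smaller in K36M. The Lama5 interaction was log2 6.06 without library 1 of WT under TGF-beta, and ranged from 4.93 to 6.06 over 15 alternative analyses. The receptor for collagen Itga11 (log2 -4.08 ± 0.35, adjusted p = 2.26e-09) and Itgb3 (log2 -3.23 ± 0.15, adjusted p = 1.09e-13) also had called interactions.

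Itga6 changed alike in direction in both genotypes, and its interaction was not called (log2 0.11 ± 0.10, adjusted p = 0.391). The other genes without a called interaction were Itga1, Itga2, Itga10, Itgae and Itgb2. Several called interactions were lost without a single library. Lama2 had adjusted p = 0.0193, 0.302 without library 2 of K36M under Repsox and 0.0799 without library 1 of K36M under TGF-beta. Lama3 had adjusted p = 0.0588 without library 2 of K36M under Repsox, Lamb3 0.0898 without library 1 of WT under Repsox, Lamc3 0.0643 without library 2 of WT under TGF-beta, and Itga4 0.0612 to 0.0917 without either K36M library under TGF-beta or library 2 of K36M under Repsox.

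**Figure D3:**
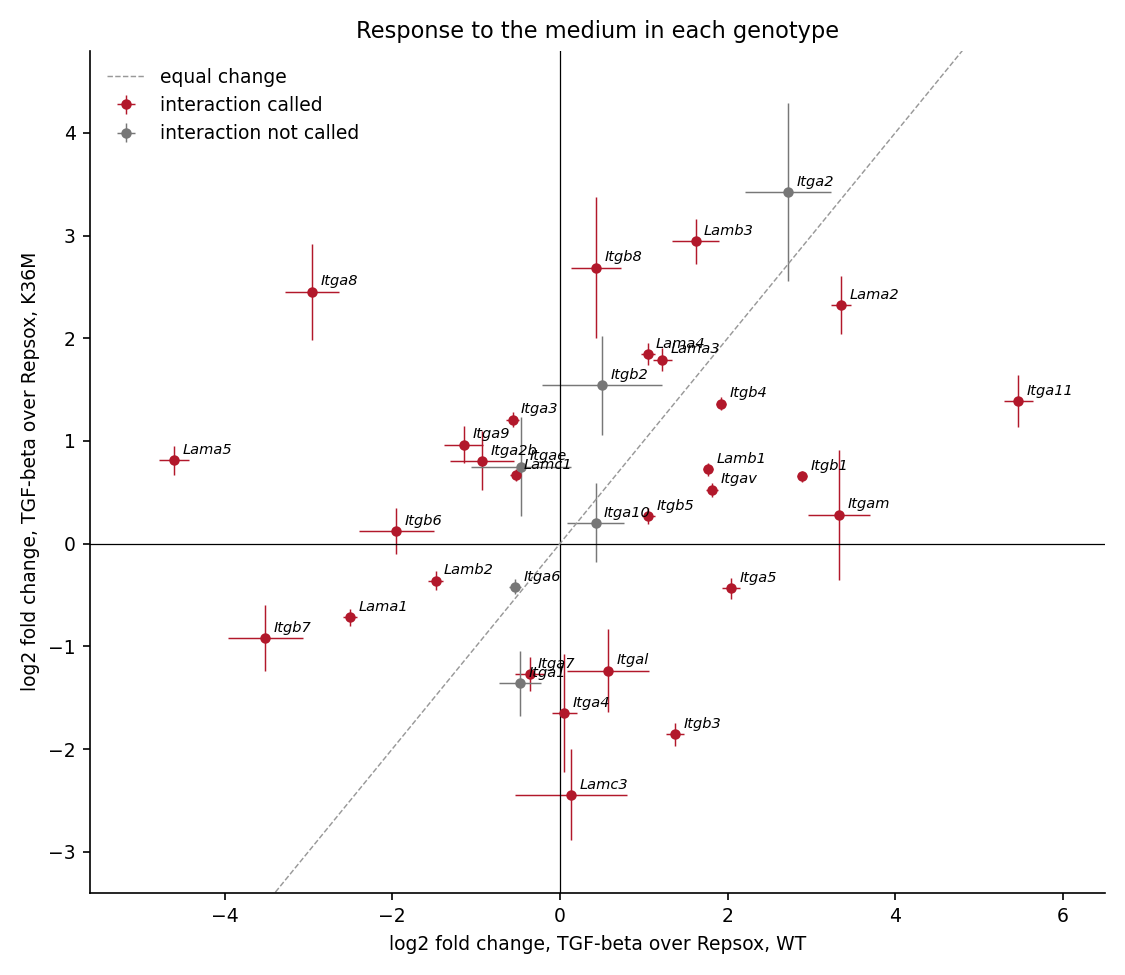
Log2 fold change of TGF-beta over Repsox in WT (horizontal axis) and in K36M (vertical axis) for 34 of the 35 tested genes, with standard errors as bars, the line of equal change dashed and genes with a called interaction in red. Itga5 and Itgb3 lie in the lower right field and Lama5 and Itga3 in the upper left, where the directions differ.

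K36M was compared with WT under Repsox, with the receptor blocked. Itga4 and the mesenchymal laminin chains Lama2 and Lama4 were 10.2- to 28.4-fold lower in K36M, and Itgb4 2.09-fold lower, while Itgb6, Itga5, Itgb3 and Itga3 were 1.96- to 5.01-fold higher. Of the 35 tested genes, 12 were higher and 12 lower, beside 28.8% of all tested genes higher and 26.9% lower, with a median of 0.08 against 0.04 over all tested genes. The shares of these genes called were not far above those of all genes in this comparison. The genotype comparisons use the same libraries as the medium comparisons, so the values given above recur.

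Itga4, the chain that binds the vascular cell adhesion molecule Vcam1 and a spliced part of fibronectin, stood at 21.4 and 24.5 CPM in WT and at 0.724 and 0.885 CPM in K36M under Repsox (log2 -4.83 ± 0.24, adjusted p = 1.48e-13). Without strand information its reads cannot be told from those of Cerkl, an antisense gene, over 8.04% of its exon bases. Lama4 was 10.2-fold lower (log2 -3.35 ± 0.10, adjusted p = 3.71e-17) and Lama2 13.3-fold lower (log2 -3.73 ± 0.23, adjusted p = 4.49e-12). In all 3 genes, which were picked for their wide called differences, the K36M libraries lay well below the WT libraries. Mesenchymal markers summed to 224 to 263 CPM in K36M against 3785 to 4062 CPM in WT, and their part was not tested. Itgb1 was 1.32-fold lower (log2 -0.40 ± 0.06, adjusted p = 2.76e-06) and Lama1 1.62-fold lower (log2 -0.69 ± 0.08, adjusted p = 1.36e-07). Among the receptor chains of the hemidesmosome, Itgb4 was lower (log2 -1.07 ± 0.06, adjusted p = 3.43e-12) and Itga6 did not pass the test (adjusted p = 0.0605; called under 5 of 16 alternatives).

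Under Repsox, Itgb6 stood at 11.1 and 12.1 CPM in K36M against 2.97 and 1.59 in WT (log2 2.33 ± 0.27, adjusted p = 1.8e-07). Itga5 was 2.20-fold higher (log2 1.14 ± 0.11, adjusted p = 5.07e-09), Itgb3 2.02-fold (log2 1.02 ± 0.10, adjusted p = 2.63e-08) and Itga3 1.96-fold (log2 0.97 ± 0.08, adjusted p = 4.22e-10). Lamb1 was 1.44-fold higher (log2 0.53 ± 0.06, adjusted p = 1.42e-07). Lama5 was 1.65-fold higher (log2 0.72 ± 0.14, adjusted p = 0.000181; DESeq2 adjusted p = 0.136). Itga1 stood at 4.28 and 5.31 CPM in K36M against 6.94 and 10.0 CPM in WT (log2 -0.83 ± 0.26, adjusted p = 0.00873), and Lamb3 was 1.80-fold higher (log2 0.84 ± 0.30, adjusted p = 0.0198). Calls of Lamb3, Itga1, Itga2 and Itga9 were each lost when 1 of several libraries was left out. The highest adjusted p was 0.149 for Lamb3 and 0.133 for Itga1, without library 2 of WT, and 0.189 for Itga9 and 0.144 for Itga2, without library 1 of K36M. It was 0.0969 and 0.0941 for Lamb3 and Itga1 without library 1 of K36M, 0.178 and 0.106 for Itga9 and Itga2 without library 2 of WT, and 0.0576 and 0.0930 for Itga9 and Itga2 without library 2 of K36M. With DESeq2, Itga9 (0.136), Itga1 (0.0575) and Itga2 (0.0795) were not called.

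K36M was then compared with WT under TGF-beta, with the receptor stimulated. Lama5 was 70.2-fold higher in K36M, Itgb6 21.1-fold, Itga3 6.69-fold, Itga9 6.08-fold and Lamb3 4.50-fold. Itga4, Lama2 and Itga11 were 21.9- to 92.7-fold lower, Itgb1 6.20-fold and Lama4 5.88-fold. Of the 35 tested genes, 16 were higher and 15 lower, beside 36.4% of all tested genes higher and 33.9% lower, with a median of 0.15 against 0.05 over all tested genes. Both shares were above those of all genes.

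Lama5 stood at 1863 and 1727 CPM in K36M and at 35.7 and 16.2 CPM in WT (log2 6.13 ± 0.19, adjusted p = 8.89e-18). Its log2 fold change was 6.78 without library 1 of WT and ranged from 5.65 to 6.78 over 16 alternative analyses. Itgb6 stood at 13.7 and 11.5 against 0.861 and 0.359 CPM (log2 4.40 ± 0.35, adjusted p = 1.91e-10). Its log2 fold change was 5.09 without library 1 of WT and ranged from 3.86 to 5.09 over 16 alternative analyses. Itga3 had 371 and 356 against 54.7 and 53.9 CPM (log2 2.74 ± 0.08, adjusted p = 5.22e-18) and Itga9 18.1 and 20.4 against 2.58 and 3.66 CPM (log2 2.60 ± 0.22, adjusted p = 3.29e-10). The groups did not overlap for any of these genes, as is likely for genes picked for the widest called changes. Lamc1, the gamma chain of most laminins, was 2.31-fold higher (log2 1.21 ± 0.06, adjusted p = 7.53e-14).

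Lower in K36M under TGF-beta were the collagen receptor Itga11 (log2 -4.45 ± 0.16, adjusted p = 9.45e-17), the common chain Itgb1 (log2 -2.63 ± 0.06, adjusted p = 6.02e-20), Itgav (log2 -1.21 ± 0.07, adjusted p = 3.56e-13), Itga5 (log2 -1.34 ± 0.10, adjusted p = 1e-10), Itgb3 (log2 -2.22 ± 0.11, adjusted p = 6.23e-14) and Itgb4 (log2 -1.63 ± 0.06, adjusted p = 6.42e-16). Lama2 had 4.77 and 6.64 CPM against 144 and 163 in WT (log2 -4.76 ± 0.15, adjusted p = 8.7e-18), and Lama4 was lower as well (log2 -2.56 ± 0.09, adjusted p = 1.24e-16). Itga4 had 0.234 and 0.262 CPM against 25.7 and 22.0 (log2 -6.53 ± 0.31, adjusted p = 1.44e-14). Lamb2 was 1.25-fold higher (adjusted p = 0.00443, and 0.136 without library 1 of WT and 0.0672 without library 1 of K36M) and Itga6 1.21-fold higher (adjusted p = 0.00223, and 0.0814 without library 2 of WT).

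Of the 21 genes called in both genotype comparisons, 5 were higher in K36M in both media (Itga3, Itga9, Itgb6, Lama5 and Lamb3) and 8 were lower in both (Itga1, Itga2, Itga4, Itgb1, Itgb4, Itgb8, Lama2 and Lama4). Another 4 were higher under Repsox and lower under TGF-beta (Itga5, Itgb3, Itgb5 and Lamb1), and 4 were lower under Repsox and higher under TGF-beta (among them Itga8, Lama1 and Lamb2). The interaction was called for each of these 8, which largely follows from called differences of opposite sign in the same fit. As above, the shares of all tested genes with each pattern were not computed, so the counts describe these genes only. Under TGF-beta the Itga8 difference was log2 0.87 ± 0.38 with an adjusted p of 0.0474, and it was not called under 11 of 16 alternatives (adjusted p 0.0532 to 0.204).

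**Figure D4:**
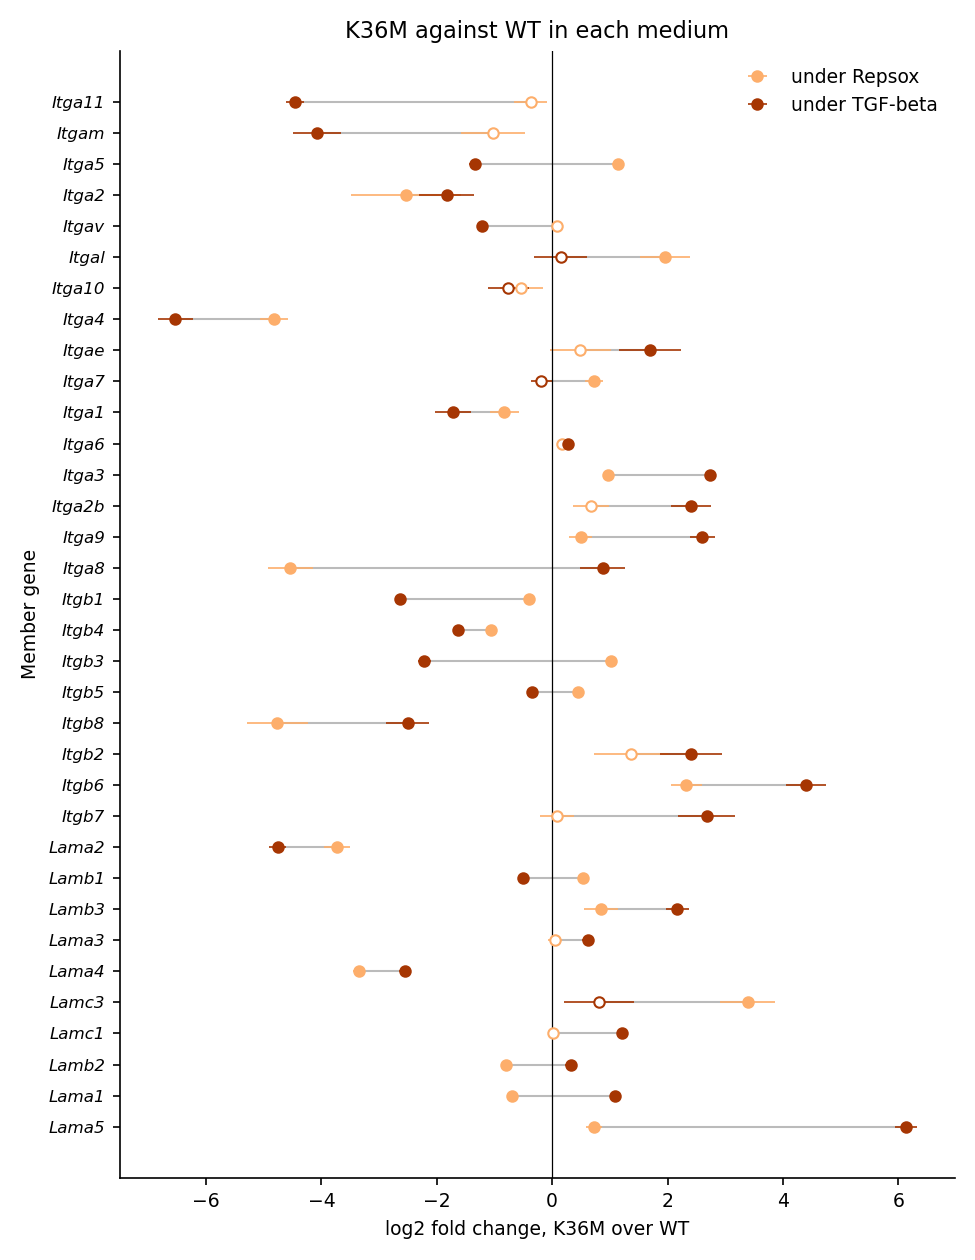
Log2 fold change of K36M over WT for 34 of the 35 tested genes under Repsox (light) and under TGF-beta (dark), with standard errors as bars, filled points for called differences and a grey line joining the 2 values of a gene. The longest lines belong to Lama5 and Itga8, which lie higher under TGF-beta, and to Itga11, which lies lower.

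The composition of the laminin chains was described as the share of each chain in the summed length-scaled level of its class, library by library. Lama5 made up 57.2 and 54.2% of the alpha chains with Repsox and 5.73 and 2.44% with TGF-beta in WT, and 81.5 and 82.4% and 87.5 and 85.9% in K36M. In WT under TGF-beta the leading alpha chains were Lama4 at 47.3 and 51.3% and Lama2 at 27.0 and 28.8%, which had 13.1 and 14.8% and 1.40 and 1.81% in WT under Repsox. The WT libraries thus had mostly alpha-5 and alpha-1 chains with Repsox and mostly alpha-4 and alpha-2 chains with TGF-beta, and the K36M libraries held Lama5 at 81.5% or more in both. Lama1 held 25.7 and 26.3% in WT under Repsox and less in every other group.

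Among the beta chains Lamb1 and Lamb2 were near parity in WT under Repsox, with Lamb1 at 43.8 and 46.0%, and Lamb1 reached 88.4 and 87.0% in WT under TGF-beta. In K36M it held 66.6 and 66.7% under Repsox and 75.6 and 77.4% under TGF-beta. Lamb3 stayed at or below 1.17% except in K36M under TGF-beta, at 6.64 and 5.37%. All 9 laminin trimers considered had each chain at 1 CPM or more in both libraries of each group, except that the 2 trimers with Lama2 did not in K36M under Repsox. Presence at 1 CPM does not mean like amounts. In WT under Repsox the lowest chain of the trimer with Lama3 and Lamb3 was Lamb3, at 0.419 CPM per kb. That of the trimer of Lama1, Lamb1 and Lamc1 was Lama1, at 25.3 CPM per kb.

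**Figure D5:**
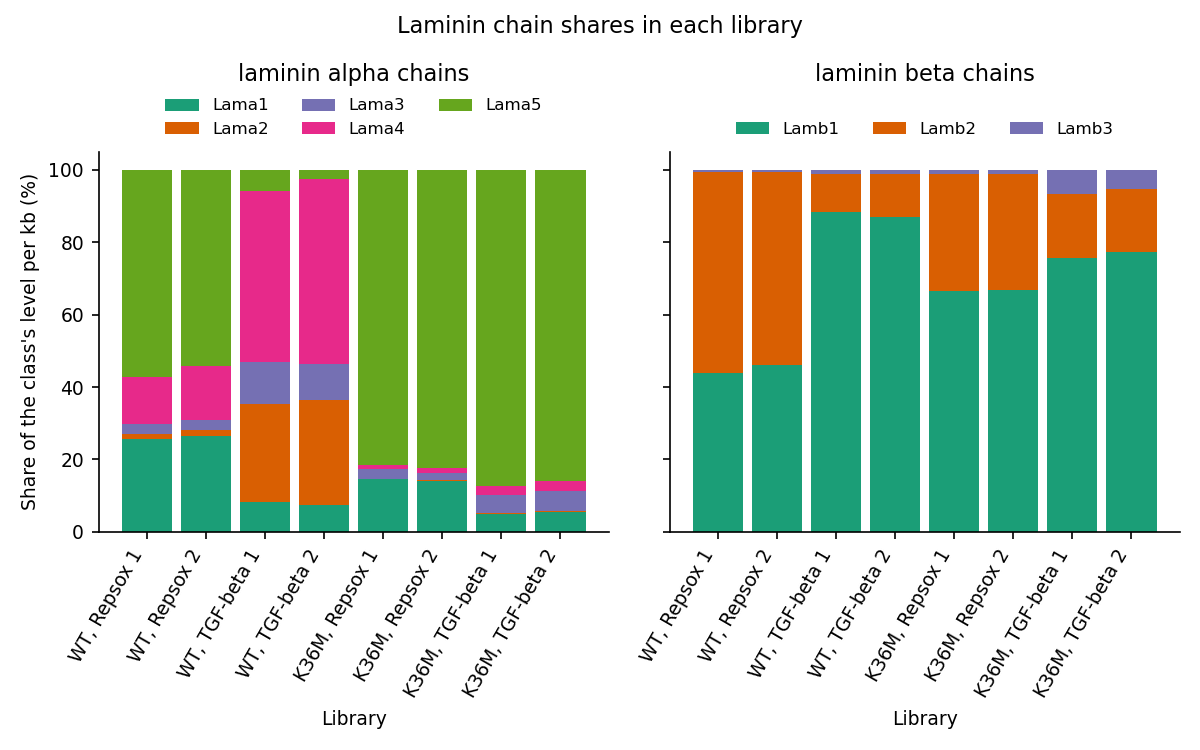
Stacked bars of the share (percent) of each laminin alpha and beta chain in the summed CPM per kb of its class, for each of the 8 libraries. Lama5 fills 54.2 to 57.2% of the alpha bar in WT under Repsox, 2.44 to 5.73% in WT under TGF-beta and at least 81.5% in K36M, and Lamb1 fills at least 87.0% of the beta bar in WT under TGF-beta.

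Chains that pair with each other did not keep one ratio. Itgb4 pairs only with Itga6, and the ratio of Itgb4 to Itga6 per kb was 2.55 and 2.40 with Repsox and 12.8 and 14.5 with TGF-beta in WT, and 1.10 and 1.01 with Repsox and 3.57 and 3.70 with TGF-beta in K36M. It was higher under TGF-beta in both genotypes, in which Itgb4 rose and Itga6 fell. Itgb4 shares 7.66% of its exon bases with an antisense gene, B230344G16Rik. The ratio of Itgb1 to the sum of its 12 alpha partners was 1.05 and 1.17 with Repsox and 3.71 and 3.60 with TGF-beta in WT, and 0.597 and 0.598 with Repsox and 0.768 and 0.803 with TGF-beta in K36M. Of the 5 beta chains that pair with Itgav, Itgb1 and Itgb5 carried most of the length-scaled level: Itgb5 held 35.0 and 30.4% with Repsox and 12.4 and 12.5% with TGF-beta in WT, and 44.4 and 43.6% with Repsox and 42.0 and 39.0% with TGF-beta in K36M. Itgb6 and Itgb8, the 2 chains that release latent TGF-beta, each held at most 1.04%. Of 24 textbook heterodimers, both chains were at 1 CPM or more for 18 with Repsox and 17 with TGF-beta in WT, and for 14 and 16 in K36M.

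The remaining members were low. Itga8, an RGD receptor chain of mesenchyme, stood at 9.10 and 9.90 CPM with Repsox and 1.29 and 1.15 with TGF-beta in WT, and 0.263 and 0.563 with Repsox and 1.95 and 2.53 with TGF-beta in K36M (interaction log2 5.41 ± 0.56, adjusted p = 3.83e-08). Itgb8 stood at 4.52 and 3.85, 5.42 and 5.89, 0.0658 and 0.241 and 1.09 and 0.874 CPM in the same order, with 1 and 3 counts in K36M under Repsox. Itga2, a collagen receptor chain, had 2 counts in K36M under Repsox against 13 in WT, a ratio of 6.40 (exact 95% interval for counting error 1.45 to 58.4), and 21 in K36M under TGF-beta, a ratio of 12.0 (2.92 to 105). Lamc3 stood between 4.15 and 4.99 CPM in K36M under Repsox and at or below 1.05 CPM in the other 6 libraries. Itga10, a collagen receptor chain of cartilage, did not pass the test in any comparison.

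The leukocyte chains gave no shared pattern. Itgam, the alpha chain of the myeloid integrin Mac-1, stood at 13.9 and 11.5 CPM in WT under TGF-beta and at or below 1.81 CPM in the other 6 libraries, while its partner Itgb2 was at 0.603 and 0.431 CPM there. The 9 leukocyte markers in the table summed to 848 to 865 CPM in WT under TGF-beta and 137 to 153 under Repsox, of which Laptm5 made 829 and 843 and 122 and 108; the pan-leukocyte marker Ptprc and the myeloid adaptor Tyrobp were at or below 0.270 CPM in all libraries. Itgal, Itgae and Itgb2 stayed at or below 4.21 CPM. Itgb7 fell from 4.58 and 3.63 to 0.258 and 0.431 CPM in WT (log2 -3.51 ± 0.45, adjusted p = 4.67e-07) and stood at 4.61 and 4.10 and 2.58 and 2.01 CPM in K36M. Itga2b reached 6.95 and 7.34 CPM in K36M under TGF-beta, where 6 platelet markers summed to 1.25 to 2.36 CPM.

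The genes around the integrins and laminins were described with 4 lists, each by its counts, to be read beside the shares of all genes called and the medians over all genes given above. Of 28 tested integrin ligands (30 listed; Vtn had no count in any library), 21 rose and 5 fell with TGF-beta in WT (median log2 1.07) and 19 rose and 2 fell in K36M (1.49), while 25 were lower and 2 higher in K36M than in WT under Repsox (median -3.31) and 21 lower and 5 higher under TGF-beta (-3.14). Thbs1, a matricellular ligand of several integrins, stood at 14933 and 15756 CPM in WT and 433 and 484 CPM in K36M under TGF-beta (log2 -5.07 ± 0.09, adjusted p = 2.4e-21). Ctgf rose 48.2-fold in WT (log2 5.59 ± 0.10, adjusted p = 1.6e-21), and Spp1, osteopontin, fell 55.4-fold (log2 -5.79 ± 0.18, adjusted p = 1.97e-17). In K36M, Cyr61 rose (log2 2.19 ± 0.07, adjusted p = 1.7e-16) and Spp1 fell (log2 -1.09 ± 0.16, adjusted p = 4.63e-06), and the interaction was called for Spp1 (log2 4.70 ± 0.24) and Ctgf (log2 -3.00 ± 0.13). Under Repsox, Col6a1, a collagen VI chain, was lower in K36M (log2 -4.41 ± 0.09, adjusted p = 8.78e-20) and Mfge8 higher (log2 0.39 ± 0.07, adjusted p = 0.000138), and under TGF-beta Icam1, a ligand of leukocyte integrins, was higher (log2 2.13 ± 0.14, adjusted p = 8.84e-12).

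Of 41 focal adhesion genes, the cytoplasmic partners of integrin tails, 28 rose and 8 fell with TGF-beta in WT (median log2 0.42), against 12 and 15 in K36M (0.04), and the interaction was called lower for 23 and higher for 2 (-0.60). Fermt1, a kindlin that activates integrins, stood at 0.944 and 0.529 CPM in WT under Repsox and 150.4 and 145 CPM under TGF-beta (log2 7.61 ± 0.17, adjusted p = 1.13e-19), and at 1.05 and 1.37 and 27.8 and 24.5 CPM in K36M (log2 4.44 ± 0.19, adjusted p = 1.55e-14). Tns1, a tensin that links integrins to actin, was lower in K36M under TGF-beta (log2 -3.81 ± 0.09, adjusted p = 9.39e-20; interaction log2 -3.05 ± 0.12), and Kank1, which binds talin, was higher (log2 2.07 ± 0.10, adjusted p = 4.56e-14), after a fall in WT (log2 -2.39 ± 0.10; interaction log2 1.27 ± 0.14). K36M against WT gave 16 higher and 14 lower under Repsox and 5 higher and 28 lower under TGF-beta. Lims2 was higher under Repsox in K36M (log2 2.33 ± 0.17, adjusted p = 1.11e-10) and fell there with TGF-beta (log2 -2.72 ± 0.18, adjusted p = 3.31e-11), and the actin crosslinker Flna was lower under Repsox (log2 -0.97 ± 0.05, adjusted p = 1.05e-12).

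Of 19 further basement membrane genes, 11 rose and 3 fell with TGF-beta in WT (median log2 0.59) and 9 rose and 4 fell in K36M (0.44). Frem2, an epithelial basement membrane protein, stood at 67.4 and 65.1 CPM with Repsox and 2.32 and 1.94 with TGF-beta in WT, and 131 and 136 with Repsox and 299 and 297 with TGF-beta in K36M (interaction log2 6.12 ± 0.16, adjusted p = 1.03e-17), the same order of groups as Lama5. Nid1, the linker between laminin and collagen IV, fell with TGF-beta in K36M (log2 -1.72 ± 0.09, adjusted p = 3.38e-13) and was lower in K36M than in WT under TGF-beta (log2 -2.72 ± 0.09, adjusted p = 3.15e-17; interaction log2 -1.97 ± 0.12). Col4a5 rose in WT (log2 2.47 ± 0.11, adjusted p = 7.07e-15) and Col18a1 in K36M (log2 1.81 ± 0.07, adjusted p = 7.45e-15). Under Repsox, K36M had 7 genes higher, led by Agrn (log2 1.11 ± 0.08, adjusted p = 2.1e-10), and 9 lower, led by Col15a1 (log2 -4.08 ± 0.18, adjusted p = 2.59e-14), and under TGF-beta 5 higher and 9 lower.

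Of 13 other laminin receptors and hemidesmosome genes, 6 rose and 6 fell in WT and 6 rose and 5 fell in K36M with TGF-beta. The medians were log2 -0.25 in WT and -0.11 in K36M. Of all tested genes, 29.0% rose and 33.4% fell in WT, and 24.7% rose and 23.6% fell in K36M. Bcam, a receptor for the alpha-5 laminin chain, stood at 56.6 and 41.2 CPM with Repsox and 2.32 and 2.73 with TGF-beta in WT, and 114 and 109 with Repsox and 212 and 190.2 with TGF-beta in K36M (interaction log2 5.11 ± 0.21, adjusted p = 8.95e-15), again in the group order of Lama5. Cd151, a tetraspanin that binds laminin-binding integrins, rose in WT (log2 1.32 ± 0.08, adjusted p = 7.79e-13; interaction log2 -1.62 ± 0.11). In K36M the syndecan Sdc1 rose (log2 1.26 ± 0.10, adjusted p = 2.75e-10) and the tetraspanin Cd9 fell (log2 -0.86 ± 0.07, adjusted p = 1.32e-09). K36M against WT gave 6 higher and 6 lower under Repsox, with Dag1, dystroglycan, higher (log2 0.94 ± 0.07, adjusted p = 1.21e-10) and Sdc2 lower (log2 -2.51 ± 0.10, adjusted p = 4.09e-15), and 6 higher and 5 lower under TGF-beta, with Bcam higher (log2 6.30 ± 0.16, adjusted p = 6.53e-19) and Sdc2 lower (log2 -2.18 ± 0.09, adjusted p = 2.4e-15).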

How the data were processed

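Total RNA depleted of ribosomal RNA was sequenced in 8 libraries of 4 groups. The authors deposited a table of raw counts per gene; per the series' design text the alignment was to mm9, and the submitters' processing notes name the tools HTSeq 0.11.2, STAR 2.5.0 and edgeR, while the strand setting and gene annotation are not given in the sources used here, so antisense and overlapping genes may share reads. The members and gene lists were chosen with earlier results of these data known. From the counts, genes passing edgeR's filterByExpr (minimum count 10; 15789 of 26930) were fitted with TMM scaling and the quasi-likelihood test (edgeR 4.0.16, R 4.3.3) on 4 group means, which left 4 residual degrees of freedom. Standard errors are the log2 fold change over the root of F. Genes with a Benjamini-Hochberg adjusted p below 0.05 over all tested genes were called. CPM use TMM-scaled library sizes; lengths are merged exons of GENCODE vM1 (mm9), matched by gene identifier. The scripts were tested on simulated data. Members given library by library were the 5 called members per direction and comparison with the widest change (average log2 CPM at least 2), the 3 smallest adjusted p-values of the interaction and 9 fixed genes. From each list, the smallest adjusted p per direction was named. Others named were chosen after their values were seen. Alternatives used other scaling, DESeq2 1.42.0, limma-voom (3.58.1), other filters, subsets and a replicate block. The values of 1 member gene are not reported here.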

Additional observations from a re-analysis of the deposited data

Results flagged for a closer look

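For 29 of the 35 tested genes the change from Repsox to TGF-beta differed between K36M and WT by the test of the interaction itself (edgeR, Benjamini-Hochberg adjusted p below 0.05). The values, given here for 28 of them, are log2 changes in K36M minus those in WT. Among the integrin alpha chains they were -4.08 for Itga11, -3.05 for Itgam, -2.47 for Itga5, -1.81 for Itgal, -1.70 for Itga4, -1.29 for Itgav, -0.91 for Itga7, 1.73 for Itga2b, 1.77 for Itga3, 2.11 for Itga9 and 5.41 for Itga8. Among the beta chains they were -3.23 for Itgb3, -2.24 for Itgb1, -0.79 for Itgb5, -0.56 for Itgb4, 2.07 for Itgb6, 2.26 for Itgb8 and 2.60 for Itgb7. Among the laminin chains they were -2.58 for Lamc3, -1.04 for Lamb1, -1.03 for Lama2, 0.57 for Lama3, 0.80 for Lama4, 1.12 for Lamb2, 1.20 for Lamc1, 1.33 for Lamb3, 1.79 for Lama1 and 5.41 for Lama5. Itgam and Lamc3 reached the filter's level in both libraries of 1 group only, the group where each was highest. It was WT under TGF-beta for Itgam and K36M under Repsox for Lamc3. Their interactions thus rest on few counts in the other groups.

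Some low genes rested on single libraries. Without library 1 of K36M under Repsox, Itgam had log2 -2.14 (adjusted p = 0.138) and Itgb8 log2 1.56 (adjusted p = 0.152). Itgal had adjusted p = 0.0934 without library 2 of K36M under TGF-beta and 0.102 without library 2 of WT under TGF-beta. The interaction of Itgb6 was log2 2.77 without library 1 of WT under TGF-beta, and ranged from 1.53 to 2.77 over 15 alternative analyses. Samples were not tested for outlying values, since each group held 2 libraries.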

How the results depend on the processing

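Under 16 alternatives for each pairwise comparison and 15 for the interaction, no member's fold change reversed after a call. Of 2738 values, 2639 stayed on the same side of the threshold, 85 lost a call and 14 gained one. Values that were never called could change sign, such as Itgal for K36M against WT under TGF-beta (log2 -0.58 to 0.60). Counts of members higher and lower ranged over 10 to 13 and 10 to 13 for K36M against WT under Repsox, 13 to 16 and 14 to 16 under TGF-beta, 14 to 15 and 10 to 12 for TGF-beta against Repsox in WT, 17 to 20 and 7 to 11 in K36M, and 14 to 15 and 12 to 15 for the interaction. Leaving out libraries moved the count of members lower in K36M between 7 and 11, with 7 without library 2 of K36M under TGF-beta. With the replicate number as a block the counts were 13 and 12, 15 and 15, 15 and 11, 20 and 11, and 15 and 14 in the same order. Deviations of libraries with the same replicate number correlated at -0.0235 to 0.0420 across genes, which gave no sign of a pairing by number. A pairing is not excluded by this, because counting noise in low genes lowers such a correlation and the labels do not say. Upper-quartile scaling moved the median over all genes for K36M against WT under TGF-beta from 0.05 to 0.17 and for the interaction from 0.09 to 0.21. With 1 library left in a group, its spread was taken from the other groups.

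The calls lost lay mostly in genes with few counts. Depth limits the 10 tested members that did not reach the filter's level in every group, and 2 libraries per group limit all p-values. The cause of each lost call was not tested.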
